A study of Canis lupus familiaris with 109 samples.

Results

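The HOXA and HOXD windows are 2 stretches of 400 kb of the dog genome, on chromosome 14 from 40100000 to 40500000 and on chromosome 36 from 19700000 to 20100000 of the CanFam3.1 build. They are where the HOXA and HOXD gene clusters are expected from the order of genes shared between mammals. Every listed cytosine position inside these bounds was taken, with no use of its measured value. The HOXA window held 1421 and the HOXD window 591 positions, together 2012 of the 304191 autosomal positions in the main table of the study. A second table, with 7 libraries, listed 4637 positions in the HOXA window and 3212 in the HOXD window.

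HOX genes encode homeodomain transcription factors that set the identity of body segments along the head to tail axis, and in a cluster their order along the chromosome follows the order in which they are used. Several HOXA genes stay active in blood stem and progenitor cells and are shut down as blood cells mature, and HOXD genes are known above all for limb and posterior body patterning. In mammals these clusters are unusually rich in CpG, the dinucleotide at which cytosine is methylated. Silent HOX genes are held by Polycomb proteins in many tissues, often with little DNA methylation.

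The DNA came from blood of domestic dogs and was sequenced after bisulfite treatment and capture of chosen regions. A value is the fraction of reads at a position that stayed cytosine, from 0 (unmethylated) to 1 (methylated). The labels list 109 samples. Of these, 94 are tied to the main table, with ages between 0.134 and 14.5 years (median 6.37). Another 7 are tied to the repeat table, which includes 6 repeat captures. The age range is that of the main table only, and the oldest samples of the repeat table lie above it. A further 8 samples are labelled as removed for low coverage and are tied to neither table. The main table holds 95 libraries. None of the codes of the 102 libraries in the 2 tables matches a sample label, so the libraries stand here without age, sex or dog, and no comparison by age was made. Whole blood is a mixture of cell types, and a different mixture of cells and a different methylation level within cells cannot be told apart. The read depth behind each fraction is unknown, because the tables give no counts, and so no counting interval can be given.

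The identity of the genes in the windows was not checked, since the gene annotation used here is on another assembly (UU_Cfam_GSD_1.0). For the HOXD cluster and its neighbours, 11 of the 12 genes looked up there were found, on chromosome 36 in the order LNPK, EVX2, HOXD13 to HOXD8, HOXD3, HOXD1 and MTX2. EVX2 encodes a homeodomain factor that sits beside the HOXD genes, while LNPK and MTX2 are flanking genes of other kinds. Which of the positions described here lies in which gene, promoter, exon or intron is not known, and no sequence is shown for the same reason.

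Both windows were mostly unmethylated in blood, and they differed in what lay above that level. Each position is described here by its median library, out of 95. In the HOXA window 61.8% of positions lay under 0.1, 5.35% between 0.1 and 0.2, 15.3% between 0.2 and 0.8 (here intermediate) and 17.5% over 0.8. The HOXD window had 56.9% under 0.1, 21.2% between 0.1 and 0.2, 20.6% intermediate and 1.35%, or 8 positions, over 0.8. Among the 302179 positions outside the windows 50.5% lay under 0.1, 3.69% between 0.1 and 0.2, 12.9% were intermediate and 32.9% lay over 0.8. So the HOXD window had almost no methylated positions and a large share at low but measurable levels, and the HOXA window had both ends. Positions are not independent, and these shares are a description without a test.

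Density was counted as the listed positions within 100 bp. At like density the HOXA window kept a larger share over 0.8 than the HOXD window. The comparison with the positions outside changed with density. Of positions with a density of 10 or more, 71.9% lay under 0.1 in the HOXA window, 63.6% in the HOXD window and 83.4% outside the windows. In that dense class 12.3% of HOXA positions and 0 of 338 HOXD positions lay over 0.8, against 8.87% outside. At densities of 1 to 3, 27.6% of HOXA positions and 8.33% of HOXD positions lay over 0.8, against 58.6% outside. In the sparse class both windows were therefore less methylated than the rest, while in the dense class the HOXD window had more positions between 0.1 and 0.2, at 23.1%, against 3.25% outside.

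**Figure D1:**
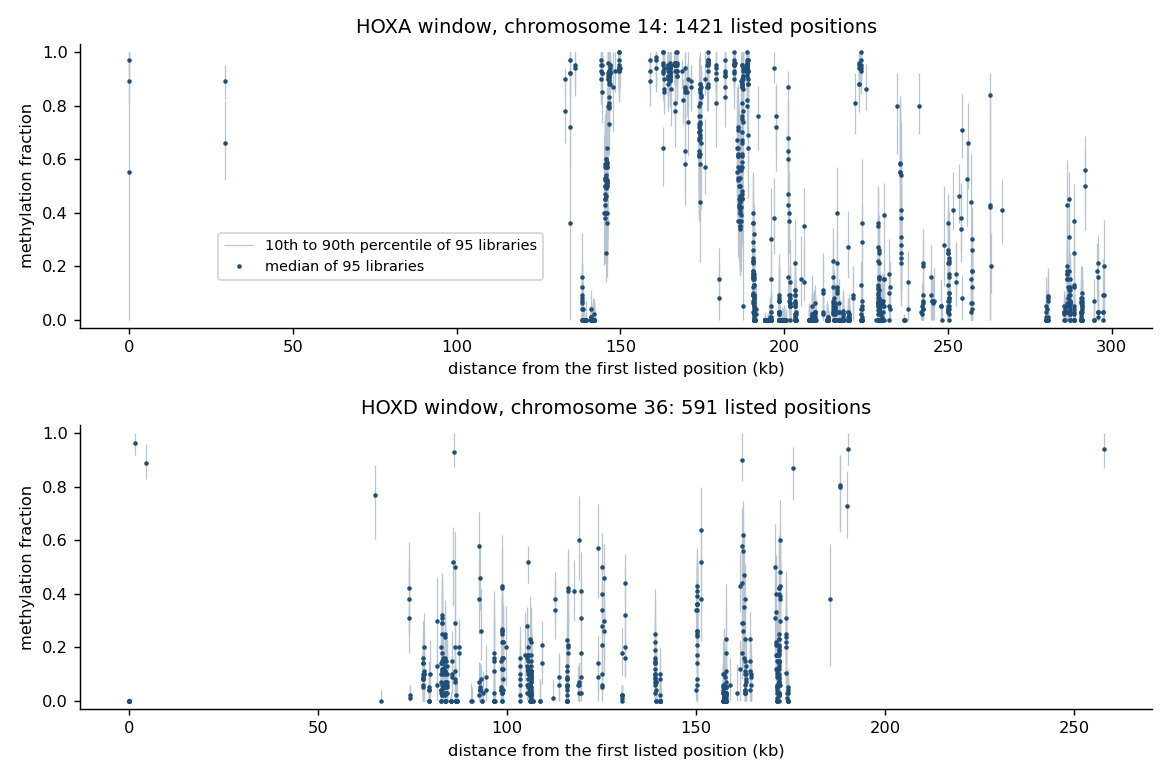
Methylation fraction (vertical axis, 0 to 1) at every listed position of the HOXA (top) and HOXD (bottom) windows, against the distance in kb from the first listed position. Points are medians of 95 libraries and grey lines run from the 10th to the 90th percentile; in the HOXA window a mostly methylated stretch of 42.5 kb is followed by mostly unmethylated positions, and in the HOXD window most points lie low.

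Along the HOXA window the methylated positions were not scattered but lay together, as the profile along the windows shows. A run is a row of 10 or more listed positions, none farther than 100 bp from the next, and its level in a library is the average of their fractions. The 44 runs of the HOXA window were divided, after their levels were seen, into 5 segments from low to high coordinates. The first, chr14:40269604-40273006, had 69 of 69 positions under 0.1. Over it, library levels lay between 0.00232 and 0.0445, with a median of 0.0103.

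The second segment, chr14:40276154-40276918, is under 1 kb long, and all of its 35 positions were intermediate. Its level over libraries had a median of 0.496 and reached from 0.233 to 0.752. The libraries lay far apart there. Between the first and the second segment 8 positions, from 40275190 to 40275512, had medians between 0.85 and 0.97, so that the second segment is an intermediate stretch with methylated positions on both sides. Of the 23 positions below the first segment, 9 lay over 0.8 and 7 under 0.1.

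The third segment, chr14:40277320-40319853, was the methylated one. It spans 42.5 kb with 311 positions, of which 217 lay over 0.8, 91 were intermediate and 2 lay under 0.1. Its level had a median of 0.812, with a lowest library at 0.762 and a highest at 0.867. In contrast to the second segment, every library was high.

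The fourth segment, chr14:40321395-40350756, was unmethylated again over 29.4 kb. Of its 626 positions 567 lay under 0.1, 29 between 0.1 and 0.2, 28 were intermediate and 2 lay over 0.8. Library levels ran from 0.031 to 0.0761, with a median of 0.0439, so that the highest library of the fourth segment stayed far under the lowest of the third. The fifth segment, chr14:40354400-40421893, had 323 positions with a wider mix, 67.8% under 0.1, 13% between 0.1 and 0.2, 17% intermediate and 2.17% over 0.8. Its library levels had a median of 0.132 and a range of 0.0815 to 0.170.

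The runs of the HOXD window showed no such change of level. From chr36:19886346 to 19980611, 94.3 kb with 17 of its 18 runs, 307 of 537 positions lay under 0.1, 124 between 0.1 and 0.2, 104 were intermediate and 2 lay over 0.8. Library levels there ran from 0.0847 to 0.171, with a median of 0.128. The remaining run, chr36:19808687-19808789, lies apart at the low end of the window and was at 0.000667 in the median library. Single positions outside any run lay high on both sides of the 94.3 kb stretch, such as chr36:19810150 at a median of 0.964 and chr36:20066472 at 0.94. Others outside the stretch were lower, such as chr36:19875361 at 0.

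The positions that the repeat table adds showed a similar division, in 7 libraries and at cytosines that the main table does not list. These positions lie inside the same segments, and 6 of the libraries share numbers with libraries of the main table. So this is no independent check. The repeat table adds 3330 positions in the HOXA window and 2664 in the HOXD window. In the third HOXA segment 477 of 717 added positions lay over 0.8 and their median was 0.92, whereas in the fourth 796 of 919 lay under 0.1. All 32 added positions of the second segment were intermediate, with a median of 0.55. In the fifth HOXA segment 79.5% of 1207 added positions lay under 0.1, against 67.8% of those in the main table. In the HOXD stretch from 19886346 to 19980611, 75.9% of 2176 added positions lay under 0.1, against 57.2% in the main table, and 2 lay over 0.8. Of the added positions there 13.2% lay between 0.1 and 0.2, against 23.1% of those in the main table. These differences were not tested.

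Counted as runs, the windows hold 62 of the 7274 runs of the main table. Of the 44 HOXA runs 25 had a median library under 0.1, 4 between 0.1 and 0.2, 8 at intermediate levels and 7 over 0.8. Of the 18 HOXD runs 10 lay under 0.1, 7 between 0.1 and 0.2, 1 was intermediate and none of the 18 lay over 0.8. Outside the windows 71.4% of 7212 runs lay under 0.1, 5.94% between 0.1 and 0.2, 7.28% were intermediate and 15.4% lay over 0.8.

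The 25 HOXA runs under 0.1 had a median range over libraries of 0.0683, against 0.0176 for such runs outside, and the widest of them, chr14:40421817-40421893, had a range of 0.21. The 2 with the most positions were even. The run with the most positions, chr14:40339485-40340116, has 101 positions and a median level of 0.0113, with libraries between 0.000891 and 0.0448. At chr14:40325052-40325415, with 64 positions, the highest library reached 0.00844. In neither run did the median of any position exceed 0.05.

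The 3 HOXA runs with the highest levels were also even between libraries. The run chr14:40280659-40280764 was at 0.949 in the median library, with a lowest of 0.853 and a highest of 0.983. At chr14:40315715-40315873 the median was 0.946, between 0.859 and 0.987, and at chr14:40297648-40297895 it was 0.939, between 0.88 and 0.977. All 95 libraries were over 0.7 in each of these runs. The highest library at 40297648-40297895 is also the one with the most filled-in values.

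Libraries differed most in HOXA runs of intermediate level, inside the upper part of the methylated stretch and just below its lower end. The run with the widest range, chr14:40317324-40317590, has 21 positions and had its lowest library at 0.155, its median at 0.430 and its highest at 0.797. In 18 libraries it lay under 0.3 and in 3 it lay over 0.7, with the others between. By this range it stood at rank 31 of the 7274 runs. The neighbouring run chr14:40316737-40316893, 0.431 kb away, had a lowest library of 0.317, a median of 0.586 and a highest of 0.859, and 27 libraries were over 0.7. Just below the lower end of the stretch, chr14:40276731-40276918 ran from 0.244 through a median of 0.52 to 0.825, with 7 libraries under 0.3 and 8 over 0.7. The run beside it, chr14:40276154-40276575, had a median of 0.462 between 0.218 and 0.749.

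These 4 runs are the HOXA runs among the 100 widest of the main table, to which the HOXD window contributes 0; the other 96 lie in the rest. A range over 0.2 was found in 8 of 44 HOXA runs and 2 of 18 HOXD runs, against 12.1% of runs outside. At intermediate levels wide ranges were common everywhere: 7 of the 8 intermediate HOXA runs and 81.7% of the 525 intermediate runs outside had a range over 0.2. The 8 HOXA runs had a median range of 0.483, against 0.291 outside.

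Other intermediate HOXA runs were composite or more even. The longest run of the window, chr14:40305006-40305725 inside the methylated stretch, was at 0.723 in the median library, with a lowest of 0.450 and a highest of 0.885. At chr14:40332261-40332488 in the fourth segment the level was 0.427, with libraries between 0.328 and 0.566, so that an isolated intermediate run of 11 positions lay among unmethylated ones. Its position medians ran from 0.07 to 0.87. The run chr14:40317894-40318585 had a median of 0.695 between 0.595 and 0.805. There the 7 positions at its low end, next to the most variable run, had a median library of 0.466 and a range from 0.223 to 0.749, and the other 33 positions one of 0.745, between 0.661 and 0.850.

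**Figure D2:**
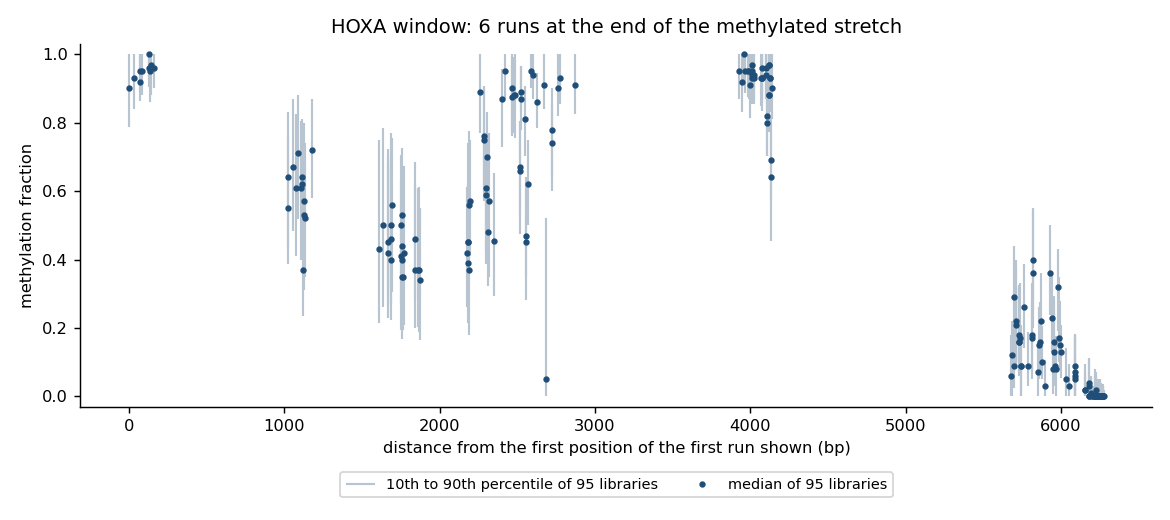
Methylation fraction (vertical axis) at the listed positions of 6 HOXA runs, against the distance in bp from the first of them. Points are medians of 95 libraries and grey lines run from the 10th to the 90th percentile; the lines are longest in the run with a median level of 0.430, and the last positions lie near 0.

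The upper end of the methylated stretch did not fall evenly. From chr14:40319644-40319853, at 0.907, levels passed within 2 kb to chr14:40321395-40321991, at 0.101. In that second run, of 73 positions, the 35 with the lowest coordinates had a median library of 0.187, between 0.109 and 0.333. The last 28 positions were at 0.0121, between 0 and 0.0361. No library of the first of these 2 sets overlapped the second.

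A sharp border lay farther up, in the run chr14:40354400-40354825. Its run level of 0.204, between 0.169 and 0.248, was a mean over unlike positions. The first 5 positions, within 43 bp, had medians between 0.93 and 1, and in every library their mean was at least 0.858. The 16 positions between 40354599 and 40354702 had medians of 0 to 0.01, and their mean reached at most 0.0544 in a library. The last 2 positions rose to medians of 0.29 and 0.36. This run was the 1 run in the 2 windows to cross from over 0.8 to under 0.1 in medians of 5 neighbouring positions.

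In the HOXD window the runs of highest level were low and fairly even. The highest was chr36:19958728-19958975, with a lowest library of 0.153, a median of 0.263 and a highest of 0.402. Next came chr36:19907330-19907529 at 0.172, between 0.0836 and 0.281, and chr36:19980469-19980611 at 0.154, between 0.0658 and 0.248. The longest run, chr36:19891082-19891494, was at 0.141, between 0.0583 and 0.213. Library values of these runs overlap, and their order is that of the medians. The run chr36:19886346-19886454 was among the 3 widest of the window at a median of 0.11, between 0.043 and 0.259. Values of exactly 1.0 were left at several of its positions, such as 2 libraries at 19886423, where the median is 0.05. They raise the run level of those libraries. Their part in its range and in its relations given below was not tested.

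**Figure D3:**
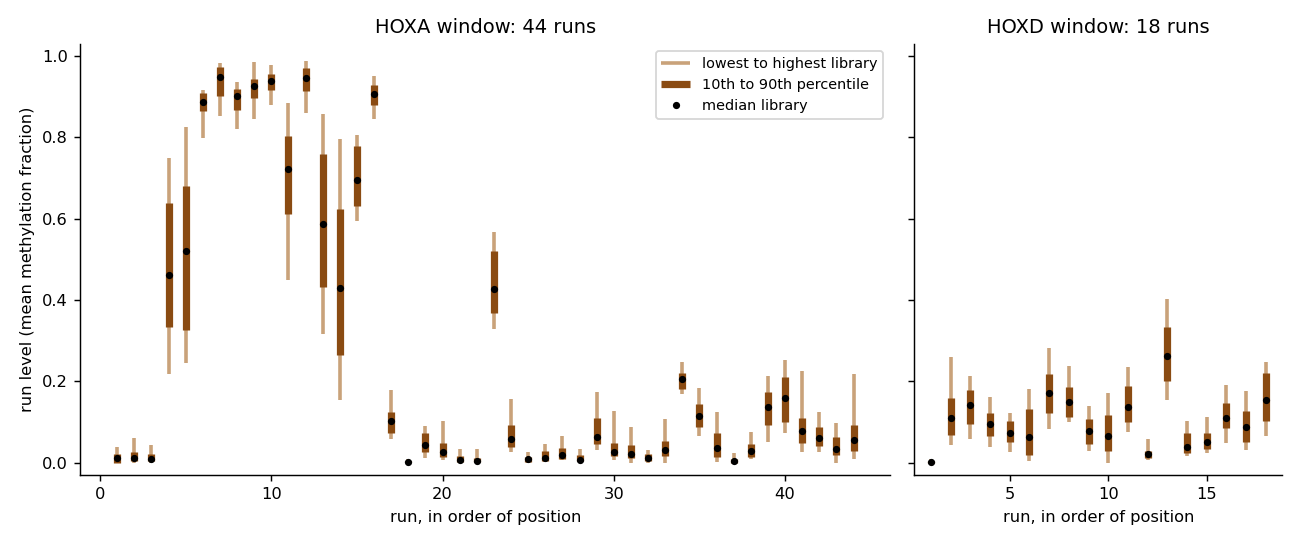
Level of each run (mean methylation fraction, vertical axis) in order of position, for 44 HOXA runs (left) and 18 HOXD runs (right). Dots are the median of 95 libraries, thick bars the 10th to 90th percentile and thin bars the lowest and highest library; the longest bars belong to intermediate HOXA runs, and no HOXD run has a median over 0.263.

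The most variable single positions differed in the form of their spread. In the HOXA window 1 position, chr14:40131029, had a pattern like that of a sequence variant, with 13 libraries under 0.12, 42 between 0.3 and 0.7 and 30 over 0.88, while no HOXD position met those bounds. The most variable HOXA position was chr14:40265711, whose median was 0.36 and whose libraries covered 0 to 1. The neighbours chr14:40393900 and 40393901, at medians of 0.42 and 0.43, 1 bp apart, had 21 and 20 libraries under 0.12. The most variable HOXD position, chr36:19914196, had a median of 0.05 and 9 libraries at exactly 1.0, with 84 of the others under 0.12. Values of exactly 1.0 among near-zero values also made the next 3 HOXD positions variable, each with 5 such values. The HOXA window had this pattern too, at chr14:40332868, with a median of 0.05, 7 libraries at exactly 1.0 and 85 under 0.12. In the HOXD window chr36:19994031, with a median of 0.38 and no value of 1.0, was the most variable position free of them.

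Methylation at intermediate positions was shared between neighbours over distances of up to about 1 kb in the HOXA window and less so in the HOXD window. Over the 95 libraries, pairs of HOXA positions 2 to 10 bp apart had a median Pearson r of 0.705, pairs at 101 to 500 bp 0.457, pairs at 501 to 1000 bp 0.392 and pairs at 1001 to 5000 bp 0.139. In the HOXD window the median r was 0.394 for pairs 2 to 10 bp apart, 0.224 for those 11 to 100 bp apart and 0.149 for the next, up to 500 bp. Beyond 60 kb it was -0.0265 in the HOXA window and 0.0999 in the HOXD window. Inside the run 40317324-40317590 the median r between its positions was 0.631, and inside 19907330-19907529 it was 0.131. These values describe pairs that share libraries and reads. Pairs 1 bp apart were taken separately. Their median r was 0.511 over 32 intermediate HOXA pairs and 0.194 over 16 HOXD pairs, lower than at 2 to 10 bp. The intermediate positions also differed in level, with a median library of 0.488 in the HOXA window and 0.349 in the HOXD window. The part of the level in the difference of r between the windows was not tested.

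No relation across libraries was found between the levels of the 2 windows over their intermediate positions. The HOXA level, over 218 positions, had a lowest library of 0.394, a median of 0.488 and a highest of 0.596. The HOXD level, over 122 positions, had 0.258, 0.349 and 0.442. Across 95 libraries Pearson's r was 0.0755 (permutation p = 0.469, adjusted p = 0.543) and Spearman's rho 0.0114 (permutation p = 0.916, adjusted p = 0.916). Without the 2 libraries farthest from the HOXA median r was 0.0299. Library codes begin with 10 prefixes, which the labels do not explain. Within them r lay between -0.615 and 0.718, with the pooled sign in 3 of 10, and after taking out prefix means it was 0.0693. The test does not show that the windows vary independently. Prefix medians ran from 0.452 to 0.504 for HOXA and from 0.341 to 0.374 for HOXD.

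Single runs did show relations. Those that passed were positive between runs of the same window and negative between runs of different windows. The 3 widest runs of each window gave 15 pairs. The pairs, the relation of each of the 6 runs to the rest of the table and the relation between the windows made 22 relations, adjusted together by the Benjamini-Hochberg method. All but the last were chosen after the data were seen. Of the 22, 14 passed an adjusted p of 0.05 for Pearson's r in two-sided permutation tests.

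Within the HOXA window, the neighbours 40316737-40316893 and 40317324-40317590 had r = 0.623 and rho = 0.619 (each permutation p = 1e-05, the smallest that 100000 permutations can give, adjusted p = 5.5e-05). The sign held in 10 of 10 prefixes, with r from 0.0653 to 0.818, and r was 0.591 without the 2 farthest libraries. Across 40.4 kb of mostly methylated positions the runs 40276731-40276918 and 40317324-40317590 still had r = 0.276 and rho = 0.267 (permutation p = 0.00721 and 0.00916, adjusted p = 0.0167 and 0.0155), with a positive sign in 9 of 10 prefixes and r = 0.268 without the 2 farthest libraries. The third pair, 40276731-40276918 with 40316737-40316893, had r = 0.271 and rho = 0.257 (permutation p = 0.00834 and 0.0127, adjusted p = 0.0167 and 0.02), the sign in 9 of 10 prefixes and r = 0.284 without the 2 farthest. Libraries that were high just below the methylated stretch thus tended to be high in its upper part too.

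Within the HOXD window, 19907330-19907529 and 19958728-19958975 had r = 0.415 and rho = 0.387 (permutation p = 4e-05 and 0.00014, adjusted p = 0.000176 and 0.000513), with the sign in 9 of 10 prefixes and r = 0.373 without the 2 farthest libraries. They lie 51.2 kb apart. The pair 19886346-19886454 and 19907330-19907529 had r = 0.246 and rho = 0.343 (permutation p = 0.0169 and 0.00059, adjusted p = 0.0286 and 0.00144), the sign in 8 of 10 prefixes and r = 0.354 without the 2 farthest. The remaining HOXD pair, 19886346-19886454 with 19958728-19958975, had r = 0.107 and rho = 0.108 (permutation p = 0.305 and 0.297, adjusted p = 0.395 and 0.384) and did not pass.

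Between the windows the relations that passed were negative. The HOXD run 19907330-19907529 had r = -0.315 and rho = -0.399 with the widest HOXA run 40317324-40317590 (permutation p = 0.00173 and 0.00011, adjusted p = 0.00476 and 0.000484), the sign in 9 of 10 prefixes and r = -0.335 without the 2 farthest libraries. With 40276731-40276918 it had r = -0.342 and rho = -0.368 (permutation p = 0.00059 and 0.00029, adjusted p = 0.00185 and 0.000911), the sign in 9 of 10 prefixes and r = -0.360 without the 2 farthest. With 40316737-40316893 r was -0.251 and rho -0.278 (permutation p = 0.0139 and 0.00666, adjusted p = 0.0255 and 0.0122), the sign in 8 of 10 prefixes and r = -0.259 without the 2 farthest. The pair 40316737-40316893 with 19958728-19958975 passed by r, at -0.236 (permutation p = 0.0214, adjusted p = 0.0337), but not by rho, at -0.181 (permutation p = 0.0806, adjusted p = 0.118), with the sign in 8 of 10 prefixes and r = -0.227 without the 2 farthest. The other 5 pairs between the windows, 3 with 19886346-19886454 and 2 with 19958728-19958975, had r between -0.133 and -0.000463 and rho between -0.131 and -0.0507 and did not pass (permutation p of at least 0.199 and 0.206, adjusted p of at least 0.273 and 0.283).

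The runs were also compared with the main way in which libraries differed elsewhere. Over the 7212 runs outside the windows the first principal component, the axis along which libraries differ most, held 19.4% of the variance. Its sign is arbitrary and was set so that the HOXD level rises with it. Of the 428 outside runs with a level between 0.1 and 0.2, 77.8% had a positive r with it, and of the 1111 over 0.8, 31.1% did. Of the 5148 under 0.1, 46.8% did, and of the 525 at intermediate levels, 58.1%.

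The widest HOXA runs ran against this component. The run 40317324-40317590 had r = -0.595 and rho = -0.655 with it (each permutation p = 1e-05, adjusted p = 5.5e-05), negative in 10 of 10 prefixes and -0.570 without the 2 farthest libraries. For 40316737-40316893 r was -0.436 and rho -0.506 (each permutation p = 1e-05, adjusted p = 5.5e-05), negative in 10 of 10 prefixes and -0.407 without the 2 farthest. For 40276731-40276918 r was -0.274 and rho -0.294 (permutation p = 0.00773 and 0.00418, adjusted p = 0.0167 and 0.00836), negative in 9 of 10 prefixes and -0.267 without the 2 farthest.

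HOXD runs went the other way, although their common sign follows in part from how the component's sign was set. The run 19907330-19907529 had r = 0.672 and rho = 0.650 (each permutation p = 1e-05, adjusted p = 5.5e-05), positive in 10 of 10 prefixes and 0.702 without the 2 farthest. For 19958728-19958975 r was 0.370 and rho 0.361 (permutation p = 0.00027 and 0.00036, adjusted p = 0.00099 for both), positive in 10 of 10 prefixes and 0.351 without the 2 farthest. For 19886346-19886454 r was 0.189 (permutation p = 0.0661, adjusted p = 0.097) and did not pass, while rho was 0.301 (permutation p = 0.00327, adjusted p = 0.00719), with the sign in 7 of 10 prefixes and r = 0.330 without the 2 farthest.

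Some libraries lay apart at the low end of the component. The widest gap between neighbouring scores, 0.0543, set 10 libraries at -0.272 to -0.203 apart from the other 85, at -0.149 to 0.135. All 10 have a code whose second element is A1, A3 or A4, which 16 of the 95 libraries have, and they come from 8 prefixes. What this element stands for is not given in the labels. With the mean of each of 25 second elements taken out (the SCE libraries counting as 1 element), r with the component was -0.525 for 40317324-40317590, -0.357 for 40316737-40316893 and -0.292 for 40276731-40276918, and 0.410 for 19907330-19907529, 0.241 for 19958728-19958975 and 0.156 for 19886346-19886454.

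Relations were also computed within each side of the gap, with 12 relations adjusted together. Among the 85 libraries 40317324-40317590 had r = -0.620 and rho = -0.608, and 40316737-40316893 r = -0.569 and rho = -0.538 (each permutation p = 1e-05, adjusted p = 4e-05). The HOXD run 19907330-19907529 had r = 0.479 and rho = 0.529 there (each permutation p = 1e-05, adjusted p = 4e-05). Without the 2 farthest libraries these 3 values of r were -0.596, -0.572 and 0.511. For 40276731-40276918 r was -0.276 and rho -0.257 (permutation p = 0.0107 and 0.0183, adjusted p = 0.0297 and 0.0437), and -0.253 without the 2 farthest. For 19958728-19958975 r was 0.270 and rho 0.249 (permutation p = 0.0124 and 0.0219, adjusted p = 0.0297 and 0.0437), and 0.256 without the 2 farthest. For 19886346-19886454 r was 0.163 (permutation p = 0.136, adjusted p = 0.272) and did not pass, while rho was 0.254 (permutation p = 0.0185, adjusted p = 0.0437).

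With 3 further libraries of low score left out, at a boundary of -0.12, 82 libraries remained, and 2 of these relations no longer passed. They were 40276731-40276918, at r = -0.257 and rho = -0.234 (adjusted permutation p = 0.0617 and 0.0835), and 19958728-19958975, at r = 0.233 and rho = 0.223 (adjusted permutation p = 0.082 and 0.085). The 3 stronger ones had r = -0.594, -0.525 and 0.430. Among the 10 libraries none of the 6 runs passed. There r lay between -0.374 and 0.467 and rho between -0.212 and 0.584 (adjusted permutation p of at least 0.278 and 0.142), and no sign is read from so few libraries.

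**Figure D4:**
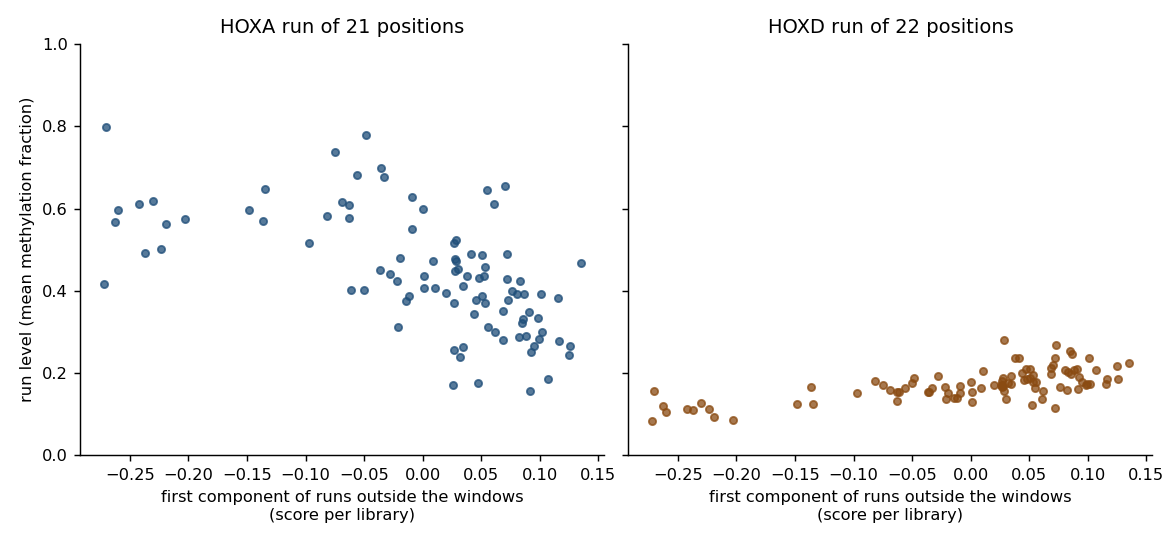
Run level (mean methylation fraction, vertical axis) of the HOXA run of 21 positions (left) and the HOXD run of 22 positions (right), against the score of each of 95 libraries on the first principal component of runs outside the windows (horizontal axis, no unit). Each point is a library; the HOXA level is lower and the HOXD level higher at high scores, with 10 libraries apart at the low end.

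Over all runs of the windows the sign of r with the component is given by level, as a description. All 18 HOXD runs had a positive r with the component, a common sign that follows in part from how the component's sign was set. They were 10 runs under 0.1, 7 at 0.1 to 0.2 and 1 intermediate. Outside the windows 46.8%, 77.8% and 58.1% of runs in these classes were positive. The 18 runs share their libraries and are not independent. Of the 8 intermediate HOXA runs 1 had a positive r, the border run 40354400-40354825 at 0.543, and the other 7 were negative. Among these 7, r was weak in the runs starting at 40305006 (-0.0617), 40332261 (-0.0747) and 40276154 (-0.123). The others lay between -0.595 and -0.274. Several adjoin each other, namely those starting at 40276154 and 40276731, and those starting at 40316737, 40317324 and 40317894. The 7 runs thus stand for fewer separate places. The HOXA runs at 0.1 to 0.2 had a positive r in 3 of 4, up to 0.748 at chr14:40417299-40417533, whose level had a median of 0.16 between 0.0718 and 0.253. Of the 25 HOXA runs under 0.1, 18 were positive, against 46.8% of such runs outside, and of the 7 over 0.8, 5 were positive, with a median r of 0.193, against 31.1% outside. Within the HOXA window the intermediate runs were thus the class with mostly negative r, whereas outside 58.1% of intermediate runs were positive. This difference rests on 8 runs, some adjoining and some with a weak r, and was not tested.

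The repeat table allowed libraries of the same number to be compared. The codes of 6 libraries of the repeat table, beginning with CHYB6, carry the numbers 1, 5, 6, 7, 8 and 10. Libraries with codes holding the word Pilot carry the same numbers, and each CHYB6 library was set against its namesake. That a number marks 1 dog is not stated in the labels. Over 205 intermediate HOXA positions the CHYB6 library minus the Pilot library ran from -0.0415 to 0.0133, and over 108 intermediate HOXD positions from -0.0193 to 0.0104. Single positions were less steady, with a median absolute difference between 0.06 and 0.11 for intermediate HOXA positions. No test was run over the 6 pairs, since their libraries are not tied to samples.

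The widest HOXA run kept the order of its libraries apart from number 10. At 40317324-40317590 the CHYB6 library had 0.512, against 0.497 in the Pilot library, for number 1. For number 5 the values were 0.625 in the CHYB6 library and 0.648 in the Pilot library. For number 6 they were 0.422 in the CHYB6 and 0.399 in the Pilot library. In 3 of 6 numbers, then, the CHYB6 value was higher, and the differences for these first 3 were small beside the range of 0.642 over 95 libraries. For number 7 the CHYB6 library had 0.652 and the Pilot library 0.681, and for number 8 the CHYB6 library had 0.488 and the Pilot library 0.458. For number 10 the CHYB6 library had 0.576 and the Pilot library 0.698, the largest difference of the 6. The median absolute difference was 0.0262.

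The 2 other variable HOXA runs differed in how close namesakes were. At 40316737-40316893, where 9 positions could be compared, differences ran from -0.16 (number 10) to 0.127 (number 6), with a median absolute difference of 0.0667. At 40276731-40276918 they ran from -0.0437 to 0.126 (number 8), with a median absolute difference of 0.0242. The 5 HOXD runs had differences between -0.0429 and 0.055. They ran from -0.0265 to 0.0212 at 19958728-19958975 and from -0.0141 to 0.0323 at 19907330-19907529, whose CHYB6 values lay between 0.148 and 0.198 and Pilot values between 0.124 and 0.178. At 19886346-19886454 they ran from -0.039 to 0.055, with a median absolute difference of 0.0275, and at 19980469-19980611 from -0.0429 to 0.0403. The high HOXA run 40280659-40280764 differed by -0.0767 to 0.0575, with a median absolute difference of 0.0287. Over the 95 libraries its level had a range of 0.13 and a standard deviation of 0.0307. These are unlike measures over unlike numbers of libraries. Whether libraries differ more there than namesakes was not tested.

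**Figure D5:**
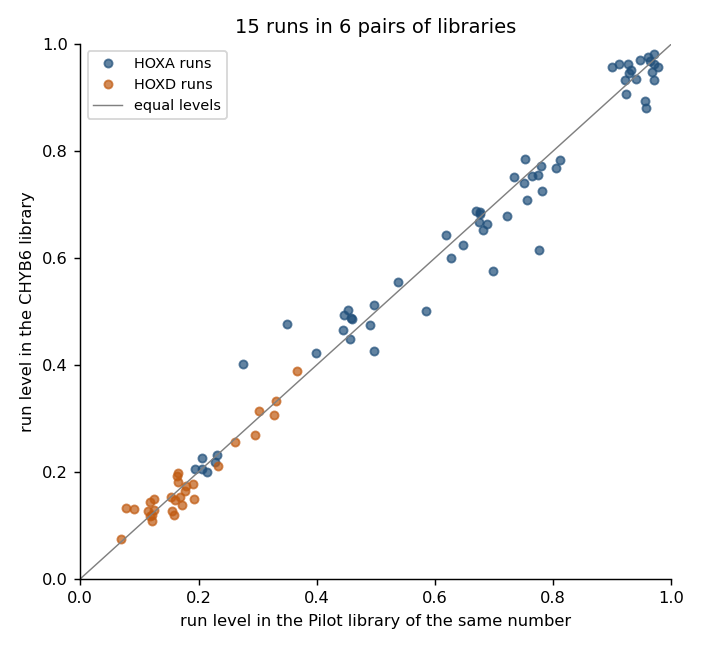
Level of 15 runs of the windows in the CHYB6 library (vertical axis) against the Pilot library of the same number (horizontal axis), both as mean methylation fraction, for 6 numbers. Points on the grey line have equal levels; HOXD points lie in the low corner, and the 2 points farthest below the line among intermediate HOXA runs belong to number 10.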

How the data were processed

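Per the labels' protocols, blood DNA was captured and bisulfite sequenced. The build was CanFam3.1, and the tools named are Bismark 0.14.3, Bowtie2 2.1.0 and Trim Galore, all per the submitters' processing notes, which give no role here. The deposited values are methylation fractions per position and library, with no counts or coverage, so depth is unknown. Values have 2 decimals, and those with more (0.784% of HOXA and 0.891% of HOXD values, up to 26.8% and 23.5% in 1 library) were treated as filled in by the authors. Where the median was under 0.05, deposited values of exactly 1 (tolerance 1e-06) were replaced by 0.01, which changed 2409 HOXA and 476 HOXD values. At medians from 0.05 to 0.1 a further 106 HOXA and 80 HOXD values of 1 were left. Coordinates are the first the tables list and carry an uncertainty of 1 bp. A position was taken as variant-like where 8 or more libraries each lay under 0.12, over 0.88 and between 0.3 and 0.7, with at most 12 elsewhere.

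Libraries could not be tied to samples, so the planned age model was not run, and the placing of promoters was not run for want of sequences. Correlations across libraries were tested with 100000 two-sided permutations and adjusted by the Benjamini-Hochberg method. The permutation test was also run on simulated libraries drawn independently, without code prefixes, libraries lying apart or a choice of the widest runs. That simulation therefore does not cover these features of the data. A permutation p gives how often shuffled libraries reach a correlation at least as large, with libraries treated as interchangeable. Whether libraries with different codes came from different dogs is not known, so these p-values speak for libraries and not for dogs. Runs named are, per window, the longest, the 3 highest, the 3 of widest range, the 3 intermediate of narrowest range and those that cross a border. Further runs named (40276154, 40277320 and on) as parts of segments, segments, parts of runs and the 21 added relations were picked with their values in view. The windows and lists were chosen with earlier results of these data known. Alternatives changed class boundaries, run definitions, replaced and filled-in values and the libraries used. The table mapped to human probes was not used, and the gene order of the chromosome 14 cluster is not reported here. Scripts ran on Python 3.11.15 with SciPy 1.17.1, NumPy 2.4.6 and Matplotlib 3.10.9.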

Additional observations from a re-analysis of the deposited data

Results flagged for a closer look

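Of 19 groups of 6 differences between CHYB6 and Pilot libraries, 1 held a value far from the others. At the intermediate HOXA positions the library of number 10 differed by -0.0415 (0.519 in the CHYB6 library and 0.561 in the Pilot library), while the other 5 numbers lay between -0.00283 and 0.0133. Chance flags about 1 in 20 such groups.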

How the results depend on the processing

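With a boundary of 0.2 in place of 0.1, 67.1% of HOXA and 78% of HOXD positions were unmethylated, and with one of 0.7 in place of 0.8, 19.6% of HOXA positions were methylated. Runs of at least 5 positions numbered 69 in the HOXA and 36 in the HOXD window. The 10th to 90th percentile spread of the HOXA level was 0.157 over positions inside runs, against 0.110 over all. The correlation of the 2 window levels, 0.0755 over all libraries, was negative within the prefixes L1 (-0.128), L2 (-0.0334), L4 (-0.164), L5 (-0.333), L7 (-0.615), L8 (-0.0464) and SCE (-0.35). It was positive in 3 of 10 prefixes. The prefixes with a negative value hold 8 to 11 libraries each, with a permutation p of at least 0.115. No change of sign is read from so few libraries and a pooled value this near 0. The levels of the 15 named runs stayed within their spread in 45 of 45 settings, with a largest shift of 0.00862. These settings changed only replaced and filled-in values, which are few, so a large shift of a median level was unlikely from the start. They do not cover the ranges of these runs or their relations. Replacing 1.0 at medians under 0.1, positions inside runs, libraries with little filled in and the component split were added after the data were seen. No paired analysis was possible because no comparison between groups of samples could be made, and the pairs of CHYB6 and Pilot libraries, which rest on the numbers in their codes, were described without a test. Unknown depth limits every single position.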
